A study of Mus musculus with 6 samples.

Results

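The tumour suppressor p53, its inhibitor Mdm2, 5 of its target genes with roles in cell death, arrest or signalling, and 3 inhibitors of cyclin-dependent kinases were followed across 6 mouse liver tumours. The set holds 10 genes: Trp53, Mdm2, Cdkn1a, Cdkn2a, Cdkn2b, Ccng1, Bax, Bbc3, Phlda3 and Gdf15. They were chosen by name as core members of the p53 pathway and of the CDK inhibitor families, and a probe belonged to a gene when its annotated transcript carried that symbol. All 10 were measured, by 15 probes, among 27412 features tested. RNA from each frozen hepatocellular carcinoma (HCC) was labelled with Cy3 and hybridised to a 1-colour Agilent array, 1 tumour per array.

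The tumours formed 3 groups of 2, all in C57BL/6 mice that carried an AID transgene. AID, activation-induced cytidine deaminase, is an enzyme that introduces mutations into DNA. Albumin-derived HCC without CLC came from Alb-AID mice at 90 weeks of age, for which the labels give no diet or tamoxifen. The other 2 groups, Epcam-derived HCC with CLC (here the CLC tumours) and the same without CLC, came from Epcam-AID mice that received tamoxifen and a diet of 0.1% DDC for 8 months, a chemical that injures the liver and provokes a reaction of the bile ducts. The labels do not expand CLC, and they give neither the age of the Epcam-AID mice nor any sex. Origin, transgene, tamoxifen, diet and age therefore differ together between Albumin-derived and Epcam-derived tumours and cannot be told apart, and no non-tumour liver is among these arrays. The labels do not say that the 2 tumours of a group came from separate mice, so p-values measure the spread between these tumours.

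p53 is held low by the ubiquitin ligase Mdm2 and accumulates after DNA damage, when it switches on genes that stop the cell cycle, repair DNA or kill the cell. One of those targets is Mdm2 itself, which closes a feedback loop, and another is Cdkn1a, which encodes the CDK inhibitor p21. The Cdkn2a and Cdkn2b locus acts beside it: its Ink4 proteins hold back CDK4 and CDK6, its Arf protein blocks Mdm2, and loss of p53 or of this locus is frequent in liver cancer.

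To show the control regions behind these genes, RefSeq promoter sequences (build GRCm38.p6) were searched for the p53 half-site consensus, a motif of 10 bases that is its own reverse complement, so that both strands are read in 1 pass. Each window held the 250 bases before an annotated start. Matches lay in 5 of the 10 genes, Trp53, Mdm2, Cdkn1a, Ccng1 and Bax, and in 5 of their 15 windows. Among all 32851 windows 7.13% held a match, and by gene the share was 8.20%. Cdkn1a held 2 matches at its upstream start, which began 73 and 51 bases before it, and 0.259% of all windows held 2 or more. The matches of Ccng1, Mdm2, Bax and Trp53 began 185, 186, 201 and 75 bases before theirs. Cdkn2a, Cdkn2b, Bbc3, Phlda3 and Gdf15 held none, which says only that these letters are not in these windows. Functional p53 sites often lie further from the start or inside the gene. Printed here, 5′ to 3′ on the gene's strand with matches in capitals, are the targets whose windows held a match and Phlda3, the gene whose levels differed most between tumours.
Cdkn1a, chr17:29090729-29090978, plus strand: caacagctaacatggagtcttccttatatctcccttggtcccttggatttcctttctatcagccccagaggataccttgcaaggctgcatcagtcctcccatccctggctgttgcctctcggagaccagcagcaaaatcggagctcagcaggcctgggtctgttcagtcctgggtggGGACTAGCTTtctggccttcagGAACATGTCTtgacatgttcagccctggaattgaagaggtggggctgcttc
Ccng1, chr11:40755287-40755536, minus strand: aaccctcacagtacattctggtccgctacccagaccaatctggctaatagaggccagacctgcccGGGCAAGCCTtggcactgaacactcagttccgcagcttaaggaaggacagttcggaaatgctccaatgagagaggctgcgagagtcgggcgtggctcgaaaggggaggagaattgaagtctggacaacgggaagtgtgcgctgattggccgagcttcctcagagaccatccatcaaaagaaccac
Mdm2, chr10:117710759-117711008, minus strand: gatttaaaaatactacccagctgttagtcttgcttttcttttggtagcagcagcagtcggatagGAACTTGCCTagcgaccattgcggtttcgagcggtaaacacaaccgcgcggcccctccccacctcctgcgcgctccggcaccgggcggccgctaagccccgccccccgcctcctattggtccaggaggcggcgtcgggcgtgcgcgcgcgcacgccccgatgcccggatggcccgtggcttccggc
Bax, chr7:45466899-45467148, minus strand: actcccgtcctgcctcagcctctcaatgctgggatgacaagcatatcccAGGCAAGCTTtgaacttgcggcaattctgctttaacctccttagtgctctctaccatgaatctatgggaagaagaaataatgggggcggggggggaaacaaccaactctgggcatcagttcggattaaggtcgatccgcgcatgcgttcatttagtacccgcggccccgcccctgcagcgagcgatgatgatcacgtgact
Phlda3, chr1:135765835-135766084, plus strand: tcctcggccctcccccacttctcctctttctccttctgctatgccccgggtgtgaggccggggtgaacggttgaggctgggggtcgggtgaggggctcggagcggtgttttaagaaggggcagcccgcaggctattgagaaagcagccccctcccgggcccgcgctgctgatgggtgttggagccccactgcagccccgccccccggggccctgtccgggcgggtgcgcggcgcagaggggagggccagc

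Levels are given as log2 of the processed signal minus the array's 75th percentile, so 0 is the 75th percentile of that array and 1 unit is a 2-fold difference. One probe stood for each gene, and levels are compared between tumours and never between genes. The 75th percentile lay at a signal of 285 to 488, and 52.0% to 64.6% of probes were well above background. The main probe of each of the 10 genes was well above background on all 6 arrays. The arrays lay on 2 slides. Slide 1 held both Albumin-derived tumours and replicate 1 of the Epcam-derived tumours with CLC, and slide 2 held the other 3. Hepatocyte markers (Alb, Ttr, Apoa1, Tat, Hnf4a) were well above background on every array, 5 of 5 genes.

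Trp53, which encodes p53, was among the steadiest features of the arrays. Its level was -0.68 and -0.66 in the Albumin-derived tumours, -0.55 and -0.65 in the Epcam-derived tumours without CLC, with -0.71 and -0.44 in the CLC tumours. All 6 values lay within 0.26 units, a 1.20-fold range, and 0.843% of features had a smaller range, against a median range of 1.13 units. The Epcam-derived tumours without CLC lay just above the Albumin-derived ones, by 0.07 ± 0.25 (SE), with a 95% interval from -0.55 to 0.69. The array reads RNA, while p53 is controlled largely by protein stability and by mutation, which were not measured here.

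Mdm2 was at 2.95 and 3.16 in the Albumin-derived tumours, 2.42 and 3.79 in the Epcam-derived tumours without CLC, with 2.90 and 3.26 in the CLC tumours. The lowest and the highest tumour were the 2 replicates of 1 group, the Epcam-derived tumours without CLC, which differed 2.59-fold from each other. Their group mean of 3.10 ± 0.97 (SD, n = 2) was close to those of the other groups, 3.05 ± 0.15 and 3.08 ± 0.25. A second, dimmer probe of Mdm2 gave the same order within that group, -2.42 and -1.49.

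**Figure D1:**
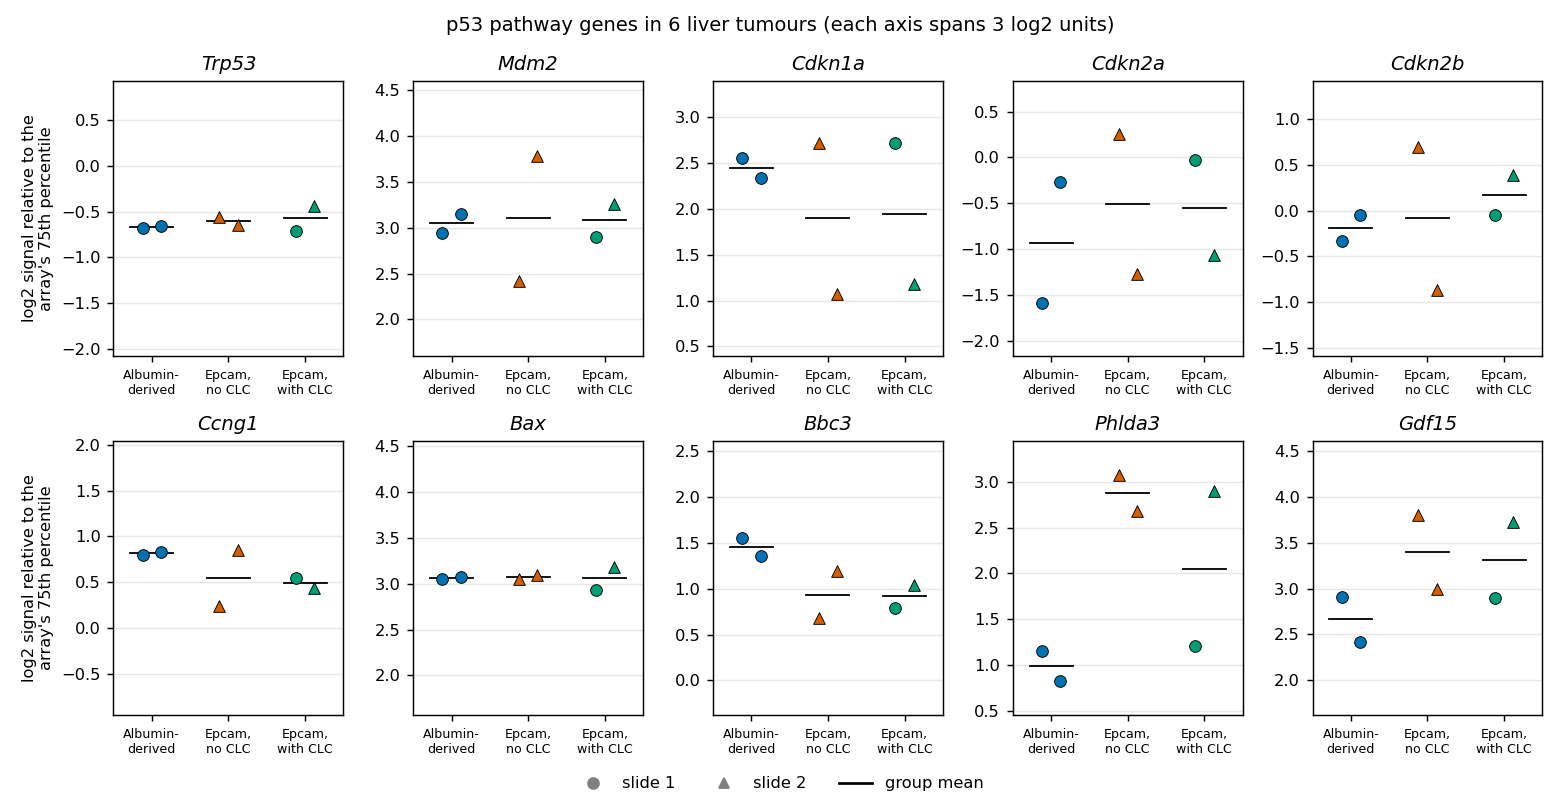
Level of each of the 10 genes in each tumour, as log2 signal relative to the array's 75th percentile, by group on the x axis; circles are slide 1, triangles slide 2, and bars are group means of 2 tumours. Trp53 and Bax lie nearly flat, Cdkn1a splits the replicates of both Epcam-derived groups, and Phlda3 is near 1 in the 3 tumours on slide 1 and near 3 in the 3 on slide 2.

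Cdkn1a, whose product p21 halts the cell cycle downstream of p53, split tumours inside groups rather than between them. It was at 2.56 and 2.34 in the Albumin-derived tumours, 2.72 and 1.07 in the Epcam-derived tumours without CLC, with 2.72 and 1.18 in the CLC tumours. Replicate 2 of each Epcam-derived group was low and the other 4 tumours were high. The replicates differed 3.13-fold without CLC and 2.91-fold with CLC, larger gaps than 93.7% and 93.9% of all features showed in those groups, and 1.16-fold in the Albumin-derived group. A second probe, annotated to another Cdkn1a transcript, was near the floor in every tumour. It was well above background only in replicate 2 of each Epcam-derived group, at -4.97 and -4.90, against -5.67 to -5.36 in the other tumours. These 2 values lay below the lowest signal marked well above background on the slide 1 arrays, -4.75, -4.54 and -4.07. The marks therefore do not show that this transcript took an opposite order. On the main probe both slides held high tumours, while the 2 low ones were on slide 2.

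Ccng1, cyclin G1, a p53 target that feeds back on Mdm2, was at 0.80 and 0.83 in the Albumin-derived tumours. It was at 0.24 and 0.85 in the Epcam-derived tumours without CLC, and at 0.54 and 0.43 in the CLC tumours. The CLC tumours lay below both Albumin-derived ones, by -0.33 ± 0.30 (SE). The pair without CLC spanned the full range of 1.52-fold.

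Cdkn2a encodes the Ink4a inhibitor and the Arf protein. Both probes here are annotated to the same Cdkn2a transcript, and whether they tell the forms apart was not tested. The main probe read -1.59 and -0.27 in the Albumin-derived tumours, 0.26 and -1.28 in the Epcam-derived tumours without CLC, with -0.03 and -1.07 in the CLC tumours. Each group held a high and a low tumour, with replicate gaps of 2.50-fold, 2.90-fold and 2.05-fold. Those gaps exceeded 92.2%, 92.7% and 85.5% of features in the same groups. A second probe was well above background in replicate 1 of the Epcam-derived tumours without CLC alone, at -4.13, near the floor. That tumour was the highest on the main probe.

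Cdkn2b, the neighbouring gene for the p15 inhibitor, was at -0.33 and -0.05 in the Albumin-derived tumours. It was at 0.69 and -0.87 in the Epcam-derived tumours without CLC, and at -0.05 and 0.39 in the CLC tumours. The pair without CLC again held both extremes, 2.95-fold apart. A second probe put the same 2 tumours at the extremes, 0.85 and -1.04. Across the Epcam-derived tumours without CLC, replicate 1 was the higher in all 3 CDK inhibitors, Cdkn1a, Cdkn2a and Cdkn2b, and the lower in Mdm2, Ccng1 and Bbc3.

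The death genes Bax and Bbc3 differed in how steady they were. Bax, which opens the mitochondrial outer membrane, was at 3.05 and 3.07 in the Albumin-derived tumours, 3.05 and 3.10 in the Epcam-derived tumours without CLC, with 2.94 and 3.19 in the CLC tumours. Its range of 0.25 units on this probe was smaller than that of all but 0.646% of features. A second Bax probe went another way, with 0.48 and 0.80 in the Epcam-derived tumours without CLC against at least 0.97 in the other 4. On that probe the difference from the Albumin-derived tumours was -0.44 ± 0.26 (SE), with a limma adjusted p of 0.391 when every probe was tested.

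Bbc3 encodes Puma, which frees Bax to act. It was at 1.56 and 1.36 in the Albumin-derived tumours, 0.68 and 1.20 in the Epcam-derived tumours without CLC, with 0.79 and 1.04 in the CLC tumours. Both Albumin-derived tumours lay above all 4 Epcam-derived ones. The differences were -0.52 ± 0.30 without CLC and -0.54 ± 0.30 with CLC (SE), with limma adjusted p-values of 0.378 and 0.442. These comparisons share the Albumin-derived tumours. The sign was the same under each of the 19 alternative settings of either comparison, from -0.78 to -0.21 without CLC and from -0.66 to -0.22 with CLC. Several of these settings alter only the variance or the features tested and repeat the main difference, so the kept sign was partly fixed in advance.

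Phlda3, a p53 target that represses Akt at the membrane, had the widest range of the 10 genes, 4.72-fold. It was at 1.16 and 0.83 in the Albumin-derived tumours, 3.07 and 2.68 in the Epcam-derived tumours without CLC, with 1.21 and 2.90 in the CLC tumours. The tumours fell into 3 low and 3 high values, and the CLC pair was split between them, by 3.23-fold. The 3 low tumours were those on slide 1 and the 3 high ones those on slide 2. Within slide 1 the CLC tumour lay 0.21 above the Albumin-derived mean, and within slide 2 the other CLC tumour lay 0.02 above the Epcam-derived mean without CLC.

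Gdf15, a secreted stress cytokine of the TGF-beta family, followed a like order with smaller steps. It was at 2.91 and 2.42 in the Albumin-derived tumours, 3.81 and 3.0 in the Epcam-derived tumours without CLC, with 2.89 and 3.73 in the CLC tumours. All 3 tumours on slide 2 lay above all 3 on slide 1, though the nearest pair, 3.0 and 2.91, were almost level. Within slide 1 the CLC tumour lay 0.23 above the Albumin-derived mean, and within slide 2 the other lay 0.33 above the mean of those without CLC. Trp53 also kept the slides apart, so 3 of the 10 genes were higher on slide 2 without overlap and 0 on slide 1. Among all features 26.4% separated the slides, 15.7% with slide 2 higher and 10.6% with slide 1 higher. Slide and origin cannot be told apart between the Albumin-derived tumours and the Epcam-derived ones without CLC.

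Epcam-derived tumours without CLC were compared with Albumin-derived tumours to ask whether p53 output differed with the tumour's origin. The limma test across all features called 0 of the 10 genes at an adjusted p under 0.05, where 0.244% of features were called. Phlda3 had the largest difference, 1.88 ± 0.58 (SE), or 3.68-fold with a 95% interval from 1.36 to 9.94-fold. Its unadjusted limma p of 0.019 was the only one of the 10 under 0.05, against 20% of all features, and its adjusted p was 0.181. The groups did not overlap for 4 of the 10 genes, with Trp53, Phlda3 and Gdf15 higher in the Epcam-derived tumours and Bbc3 lower. Of all features 55.2% did not overlap, 30.4% higher and 24.8% lower.

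The other differences in that comparison were 0.74 ± 0.44 for Gdf15, -0.55 ± 0.72 for Cdkn1a, 0.42 ± 0.72 for Cdkn2a and -0.27 ± 0.30 for Ccng1 (SE). Those of Cdkn2b, Trp53, Mdm2 and Bax were between 0.01 and 0.10. The median over the 10 genes was 0.06, the same as over all features. For Cdkn1a the 95% interval ran from -2.33 to 1.23, which takes in 2-fold differences of either sign with 2 tumours per group. The 2 groups lay on separate slides. With slide as a block, which rests on the CLC tumours alone, Phlda3 gave 0.19, Gdf15 -0.10, Trp53 -0.20 and Cdkn1a 0.99.

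**Figure D2:**
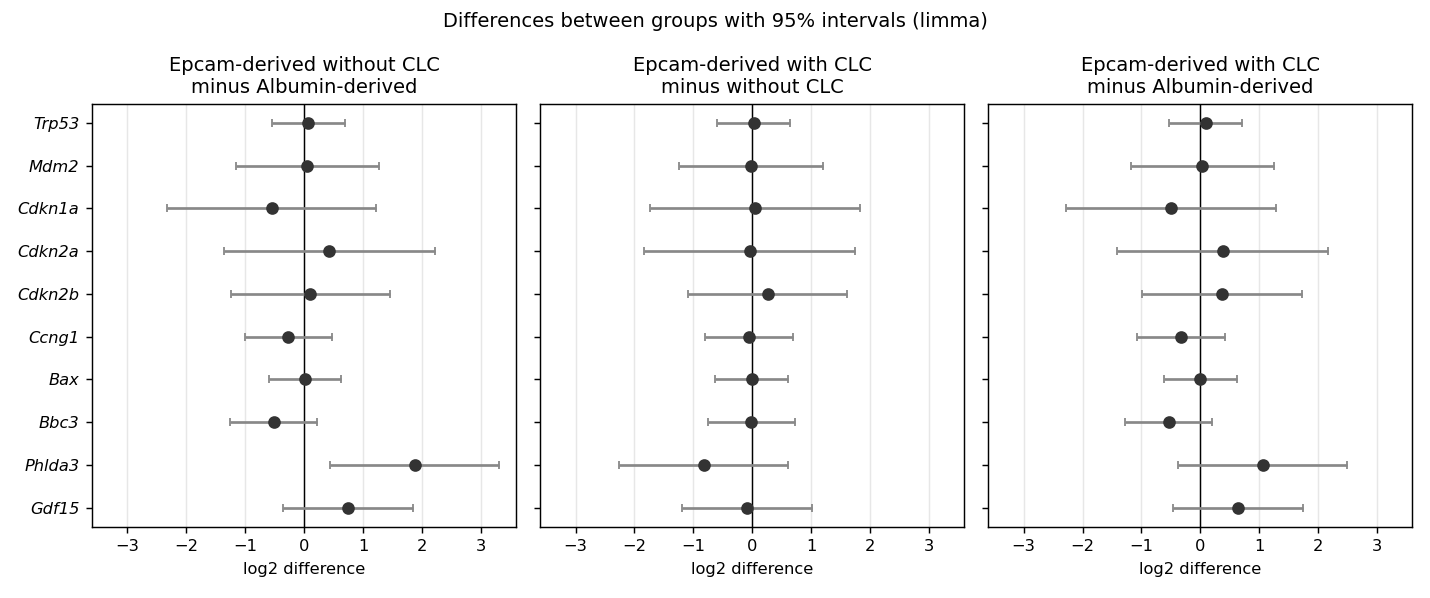
Difference in log2 level between group means for each of the 10 genes in the 3 comparisons, with 95% intervals from limma. The interval of Phlda3 between Epcam-derived tumours without CLC and Albumin-derived tumours, 0.44 to 3.31, is the only one of the 30 that leaves out 0.

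CLC was compared within the Epcam-derived tumours, where transgene, tamoxifen and diet were shared. The limma test called 0 of the 10 genes and 0% of all features, with 0 of the 10 and 3.48% of features at an unadjusted p under 0.05. The groups overlapped for every one of the 10 genes, and 30.1% of all features did not overlap. Phlda3 differed by -0.82 ± 0.58 (SE), with an interval from -2.26 to 0.61, and Cdkn2b by 0.26 ± 0.54. Both tumours without CLC lay on slide 2 and the CLC pair was split over the slides, and within slide 2 these differences were 0.02 and 0.48. The other 8 lay between -0.09 and 0.05, with a median over all 10 of -0.02 against -0.06 for all features. Not all of the 8 stayed near 0 within slide 2, where 1 CLC tumour remained. There Cdkn1a differed by -0.72, Cdkn2a by -0.56 and Gdf15 by 0.33, while Trp53, Mdm2, Ccng1, Bax and Bbc3 lay between -0.11 and 0.16. The near-zero differences over both slides held wide intervals where replicates were far apart, from -1.73 to 1.83 for Cdkn1a and from -1.83 to 1.75 for Cdkn2a. For Trp53 and Bax the intervals were narrower, from -0.60 to 0.65 and from -0.63 to 0.60.

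Epcam-derived tumours with CLC were set against the same Albumin-derived tumours. The limma test called 0 of the 10 genes, where 0.062% of features were called, and 0 had an unadjusted p under 0.05, against 16% of features. Phlda3 differed by 1.06 ± 0.58, Gdf15 by 0.64 ± 0.44 and Cdkn1a by -0.50 ± 0.72 (SE). The groups did not overlap for 4 of the 10 genes, Cdkn2b and Phlda3 higher and Ccng1 and Bbc3 lower. Of all features 50.8% did not overlap, 23.8% higher and 27% lower. The smallest limma adjusted p among the 10 was 0.438, for Phlda3. On slide 1 alone, with 1 CLC tumour against 2 Albumin-derived ones, the differences were 0.21 for Phlda3, 0.23 for Gdf15, 0.27 for Cdkn1a, 0.90 for Cdkn2a and -0.66 for Bbc3.

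The wider pathway was read from lists of 95 other genes, of which 90 were measured. Members that belong to a role list are included in the counts and medians given list by list below. Here too limma called 0 of the 90 in any comparison. At an unadjusted p under 0.05 the Epcam-derived tumours without CLC had 6 genes higher and 9 lower than the Albumin-derived tumours, 16.7% of the 90 against 20% of all features. The CLC tumours had 2 higher and 1 lower than those without CLC, 3.33% against 3.48% of all features. Against the Albumin-derived tumours they had 6 higher and 9 lower, 16.7% against 16%. The smallest adjusted p-values were 0.091, 0.999 and 0.142 in the same order, and the first and last belonged to Gadd45a.

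Among regulators of p53, 8 of 19 measured genes were higher and 11 lower in Epcam-derived tumours without CLC than in Albumin-derived ones, with a median of -0.02. Trp53bp2 and Ppp1r13b encode the ASPP proteins that steer p53 to death genes. Trp53bp2 differed by 0.66 ± 0.29 and Ppp1r13b by -0.96 ± 0.36 (SE), with limma adjusted p-values of 0.277 and 0.232. Ppp1r13b was at 2.84 and 2.39 in the Albumin-derived tumours and at 1.97, 1.33, 1.86 and 1.35 in the 4 Epcam-derived ones, without overlap. Hipk2, a kinase that activates p53, had the smallest unadjusted p among the higher regulators in CLC tumours against those without, at a difference of 0.60 ± 0.38 (SE), and 2 other probes gave 0.78 and 0.92. It was at 0.60 and -0.32 with CLC and at -0.65 and -0.28 without, so the groups overlapped, and the difference without the CLC tumour on slide 1 was 0.14.

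The arrest targets held the largest difference of the wider pathway. Gadd45a, a stress gene that slows the cycle and takes part in DNA repair, was at 3.07 and 2.66 in the Albumin-derived tumours. It was at -0.56 and 0.21 in the Epcam-derived tumours without CLC, and at -0.34 and 1.07 in the CLC tumours. All 4 Epcam-derived tumours lay below both Albumin-derived ones, by -3.04 ± 0.55 without CLC and -2.50 ± 0.55 with CLC (SE). The limma adjusted p-values were 0.091 and 0.142, past no threshold of 0.05. Sfn, the 14-3-3 sigma protein that holds cells before mitosis, went the other way by 2.35 ± 0.83 without CLC, adjusted p of 0.212, from -0.40 and 1.44 to 2.01 and 3.74. The CLC tumours were at 1.76 and 2.61 for Sfn, and every tumour on slide 2 lay above every tumour on slide 1. With slide as a block the Sfn difference was 1.51. Over the 12 measured arrest targets, 5 were higher and 7 lower, with a median of -0.26. Between CLC tumours and those without, Plk3, a stress kinase, differed by 1.12 ± 0.43 and Psrc1, a spindle protein, by -1.05 ± 0.77 (SE). Without the CLC tumour on slide 1 these values were 0.74 and -0.18, since Psrc1 was at -2.52 in that tumour and at -0.79 in the other.

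Death targets were divided, 7 higher and 9 lower of 16, with a median of -0.04. Trp53inp1, which helps p53 activate death genes, was at 4.15 and 3.38 in the Albumin-derived tumours and between 1.85 and 2.55 in the Epcam-derived ones. The differences were -1.54 ± 0.40 without CLC and -1.71 ± 0.40 with CLC (SE), with limma adjusted p-values of 0.146 and 0.153, and a second probe gave -1.56 and -1.66. Tnfrsf10b, the TRAIL receptor, was at -0.72 and -0.58 in the Albumin-derived tumours and between 0.03 and 0.63 in the others, a difference of 1.17 ± 0.27 without CLC, adjusted p of 0.120, and 0.56 on a second probe. Tnfrsf10b also separated the slides, with slide 2 higher, and its difference was 0.85 with slide as a block. Neither gene overlapped between Albumin-derived and Epcam-derived tumours. Perp, a desmosomal p53 target, differed by 1.04 ± 0.45 (SE) with CLC against without, and there 7 of the 16 death targets were higher, with a median of -0.02. Perp separated the slides too, with slide 1 higher, and within slide 2 its difference was 0.72.

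Repair and metabolism targets were higher in 12 of 16 genes in Epcam-derived tumours without CLC than in Albumin-derived ones, with a median of 0.38 against 0.06 for all features. Of these 16, 5 did not overlap between the groups, 31.25% against 55.2% of all features. At an unadjusted limma p under 0.05 there were 2, 12.5% against 20%. Ephx1, an epoxide hydrolase of drug metabolism, differed by 1.04 ± 0.30 (SE), adjusted p of 0.169 by limma, and Ercc5, a DNA repair nuclease, by -0.20 ± 0.34. All 8 measured secreted and signalling targets, Phlda3 and Gdf15 among them, had positive differences, with a median of 0.69, where 53.5% of all features were higher. Of the 8, 2 did not overlap between the groups and 1 had an unadjusted limma p under 0.05, 25% and 12.5% against 55.2% and 20% of all features. Between CLC tumours and those without, 1 of those 8 was higher, and the median was -0.50. The higher gene was Sulf2, a sulfatase of the cell surface, by 0.66 ± 0.59 (0.27 without the CLC tumour on slide 1). Phlda3 and Gdf15 of this list separated the slides, with slide 2 higher, and within slide 2 their CLC differences were 0.02 and 0.33. Over both slides Gls2, a mitochondrial glutaminase, differed by -1.01 ± 0.46 with CLC against without, and by -1.34 on a second probe.

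**Figure D3:**
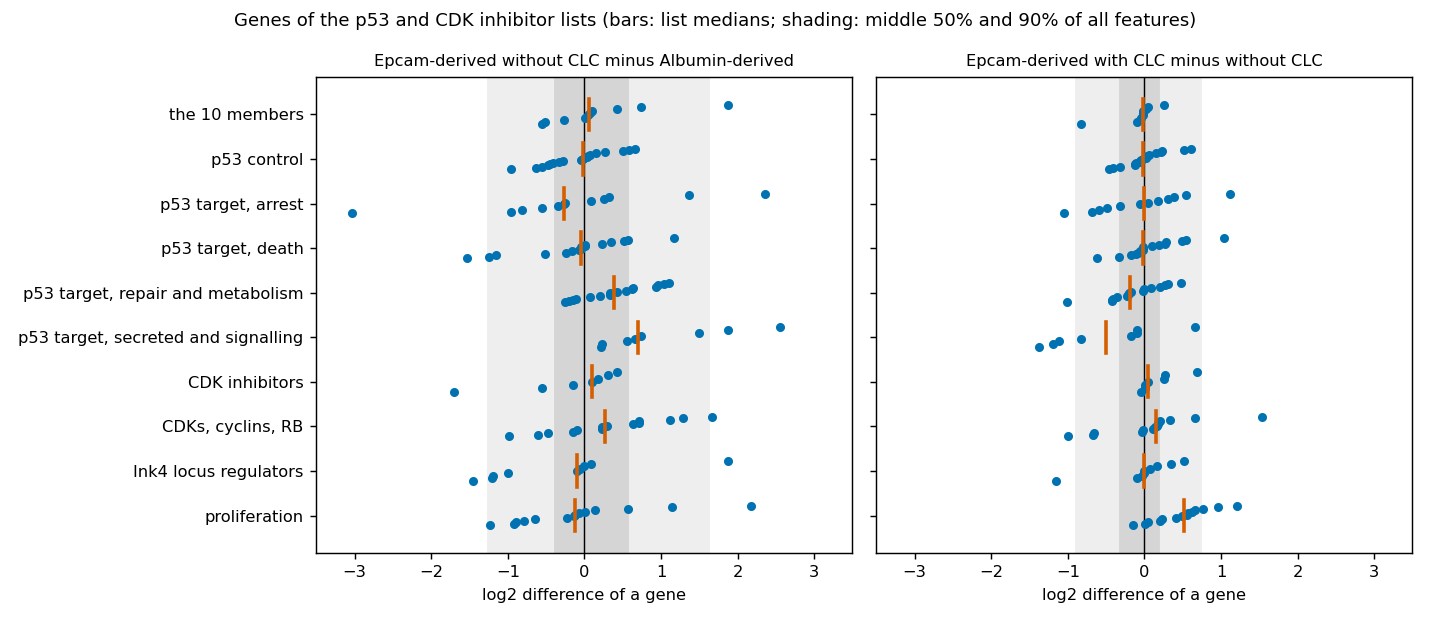
Log2 difference of each measured gene, by list, between Epcam-derived tumours without CLC and Albumin-derived tumours (left) and between CLC tumours and the Epcam-derived tumours without CLC (right); bars are list medians and shading spans the middle 50% and 90% of all features. The median of the 10 members is 0.06 on the left and -0.02 on the right, and Gadd45a, at -3.04, lies furthest from 0.

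The full CDK inhibitor families comprised 7 genes, 4 higher and 3 lower in Epcam-derived tumours without CLC than in Albumin-derived ones. Cdkn1c, the p57 inhibitor, was at 0.19 and 1.59 in the Albumin-derived tumours, -0.98 and -0.63 in the Epcam-derived tumours without CLC, with -0.59 and 0.34 in the CLC tumours. The first 2 groups did not overlap, with a difference of -1.70 ± 0.56 (SE) and a limma adjusted p of 0.196. Cdkn2d, the p19 inhibitor, had the largest positive difference of the 7 after Cdkn2a, 0.31 ± 0.35. With CLC against without, 6 of the 7 were higher, with a median of 0.05, where 43.1% of all features were higher with a median of -0.06. Among the 6 were Cdkn1a at 0.05 and Cdkn2d at 0.01, and within slide 2 Cdkn1a differed by -0.72. Cdkn1c differed by 0.68 ± 0.56, or 1.14 without the CLC tumour on slide 1.

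Their partners, the CDKs, cyclins and RB proteins, included cyclins that differed in opposite ways. Ccnd3 was at 2.60 and 2.17 in the Albumin-derived tumours, 4.21 and 3.91 in the Epcam-derived tumours without CLC, with 2.93 and 3.86 in the CLC tumours, again with the lower CLC tumour on slide 1. Its difference without CLC was 1.67 ± 0.40 (SE), adjusted p of 0.129 by limma. Every tumour on slide 2 lay above every tumour on slide 1 for Ccnd3, and the groups of this difference lay on separate slides. Ccnd1 was at 3.08 and 2.40, then 2.29 and 1.23, then 3.12 and 3.47 in the same order of groups. It was higher in both CLC tumours than in both without, by 1.54 ± 0.46, at an unadjusted limma p of 0.017 and an adjusted p of 0.999. Ccne1 went the other way there, by -1.0 ± 0.38, and by -0.54 without the CLC tumour on slide 1. Ccne1 too was higher in every tumour on slide 2 than in any on slide 1. Over the 14 measured partners 9 were higher and 5 lower in each of these comparisons.

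Of the 9 regulators of the Ink4 locus, 2 were higher and 7 lower in Epcam-derived tumours without CLC than in Albumin-derived ones. Bmi1, a Polycomb protein that silences Cdkn2a, was at 1.75 and 1.55 in the Albumin-derived tumours and between 0.26 and 0.61 in the 4 Epcam-derived ones. The difference was -1.20 ± 0.28 without CLC and -1.24 ± 0.28 with CLC (SE), with limma adjusted p-values of 0.122 and 0.143, and a second probe gave -1.42 and -1.08. Cbx7, which belongs to the same family of silencers, differed by 1.88 ± 0.77 without CLC, from -2.95 and -0.80 to 0.09 and -0.08. The CLC tumours were at -1.73 and -0.57 for Cbx7, and every tumour on slide 2 lay above every tumour on slide 1. Cdkn2a itself overlapped between all groups.

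Proliferation genes were set beside the inhibitors, since p21 and the Ink4 proteins act to stop the cycle. The mean level of 14 such genes was 0.25 and -0.95 in the Albumin-derived tumours, -1.34 and 0.49 in the Epcam-derived tumours without CLC, with -0.57 and 0.67 in the CLC tumours. In both Epcam-derived groups replicate 2 had the higher proliferation mean, the lower Cdkn1a and the lower Cdkn2a. Cdkn2b did not keep that order: replicate 2 was the lower without CLC and the higher with CLC, at 0.39 against -0.05. The Albumin-derived tumours did not show that order for Cdkn1a, since replicate 1 was the higher in both, at 2.56 for Cdkn1a. For Cdkn2a they did, with -1.59 in replicate 1 and -0.27 in replicate 2. With CLC against without, 13 of 14 proliferation genes were higher, with a median of 0.52, where 43.1% of all features were higher with a median of -0.06. Of these genes 0 were called, as were 0% of all features. At an unadjusted limma p under 0.05 there were 0, against 3.48% of all features, and 0 separated the groups, against 30.1%. The mean over the 14 genes overlapped too, with replicate 2 without CLC at 0.49, above replicate 1 with CLC at -0.57.

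**Figure D4:**
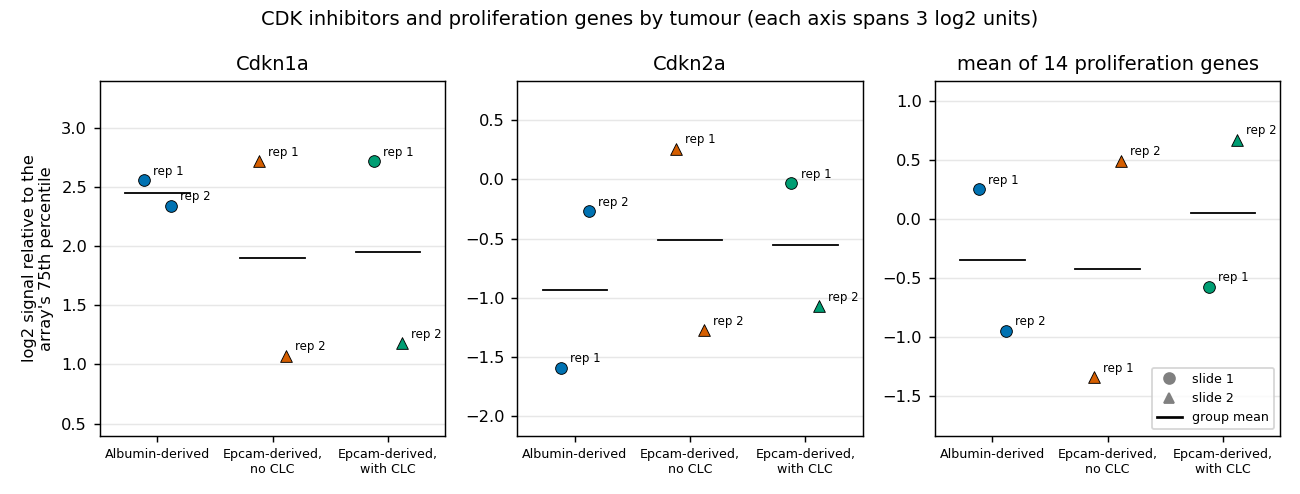
Level of Cdkn1a, of Cdkn2a and the mean of 14 proliferation genes in each tumour, as log2 signal relative to the array's 75th percentile; circles are slide 1, triangles slide 2, bars group means, and replicate numbers stand beside the points. In both Epcam-derived groups replicate 2 is the lower in Cdkn1a and Cdkn2a and the higher in proliferation, at 0.49 and 0.67; Cdkn2b, not plotted, does not keep this order.

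Patterns across the 6 tumours were compared over 15869 named genes for Trp53, Cdkn1a and Cdkn2a. Nearest to Trp53 were Mutyh, a DNA glycosylase, with a Pearson r of 0.994, and Tuba1a, an alpha tubulin, at 0.980, and Zfp366 at 0.972. Trp53 itself spanned only 0.26 units. Like Trp53, Mutyh and Zfp366 were higher in every tumour on slide 2 than in any on slide 1, while Tuba1a overlapped between the slides. Nearest to Cdkn1a were Sbf1 at 0.994 and Shroom1 and Cabp5 at 0.990. Nearest to Cdkn2a were Plpp7 at 0.997, Kcne3 at 0.992 and Parvb at 0.990. With 6 arrays high values are common: 61, 162 and 143 genes exceeded 0.9 for Trp53, Cdkn1a and Cdkn2a. These values describe 6 shared arrays and carry no test.

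Several cell type marker lists differed in level between groups. The summed signal of the 5 hepatocyte markers, relative to the 75th percentile, was 1954 to 2379 in the Albumin-derived tumours, 1127 to 1357 in the Epcam-derived tumours without CLC and 1060 to 1473 in those with CLC. All 5 were lower in Epcam-derived tumours without CLC, with a median difference of -1.0. The 5 bile duct markers (Krt19, Krt7, Epcam, Sox9, Spp1) summed to 4.56 to 37.7, 29.5 to 43.5 and 59.8 to 107.7 in the same order, so the first 2 groups overlapped, and 2 to 5 of them were well above background in a tumour. The 5 macrophage markers summed to 21.6 to 37.4, 39.8 to 54.4 and 56.9 to 79.7. T cell markers summed to 19.7 to 36.0, 28.5 to 44.8 and 14.6 to 24.7, and the Albumin-derived tumours overlapped both other groups. A sum follows its brightest genes, and the mean log2 level of the T cell markers did not keep that order. It was -0.67 and -0.24 in the Albumin-derived tumours, 0.16 and -0.35 in those without CLC, and -0.05 and 0.38 in the CLC tumours. Endothelial markers overlapped between all groups, at 6.21 to 11.52, 10.5 to 12.3 and 8.10 to 19.4. Stellate and fibroblast markers summed to 33.6 to 58.2, 39.4 to 94.0 and 66.1 to 84.1, neutrophil markers to 2.15 to 2.27, 1.70 to 2.63 and 2.61 to 4.20, and B cell markers to 0.310 to 0.921, 0.906 to 1.17 and 1.37 to 1.59. Of the marker genes 0 passed the limma test in any comparison, over all 8 lists. Few features passed at all: 0.244% without CLC and 0.062% with CLC against Albumin-derived tumours, and 0% between the Epcam-derived groups. At an unadjusted limma p under 0.05 were 60% of the hepatocyte markers in either comparison with Albumin-derived tumours, against 20% and 16% of all features. For endothelial and for stellate and fibroblast markers that share was 0% in both. In whole tumours, fewer cells of a type and less RNA per cell cannot be told apart, and the part of cell mixture in the values of Phlda3, Bbc3, Gadd45a and the others was not tested.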

How the data were processed

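The processed signal deposited for each array is an intensity, which the scanner software (Agilent Feature Extraction, version 11.5.1.1) subtracted for background and detrended, per the file headers, with no scaling between arrays. The other columns used, also per the file headers, are yes or no marks per spot (well above background, saturated, outlier, control). The authors' table of processed intensity equals that signal times 1 factor per array (1.64 to 2.42), so it is linear, uncentred and of the same direction, and what set the factors is unknown. Its column medians were 61.9, 55.0, 80.0, 74.1, 73.9 and 78.0, in the order of groups and replicates in the text.

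Control and outlier spots were left out, log2 signal was centred on each array's 75th percentile, and spots of a probe were averaged. Of 56605 probes, 34777 were kept as well above background on all arrays of a group. Accessions named 32994 probes with 22911 symbols through the RefSeq gene table of GRCm38.p6, and probes without a match kept their accession. The brightest kept probe stood for a gene, which left 27412 features, 15869 with a symbol. A single limma 3.58.1 model (R 4.3.3) on 3 groups of 2 arrays, with 3 residual degrees of freedom, gave 3 contrasts, each adjusted by Benjamini-Hochberg over all features at 0.05. The fit was tested on simulated data. The number of arrays limits the precision.

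The members and lists were chosen with earlier results of these data known. All members are named. Beside them, by rule, each list gives the gene with the smallest unadjusted p among higher and among lower genes in each comparison, and the 3 genes most correlated with Trp53, Cdkn1a and Cdkn2a are named. Not every gene the rule chose is described. Alternatives concerned scaling, background, filter, slide, replicate number, probes, variance model and leaving out each tumour. Normexp used median spot signals, since mean signals are not among the columns analysed here.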

Additional observations from a re-analysis of the deposited data

How the results depend on the processing

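The count of the 10 members called by limma was 0 in each comparison under every alternative run, as was the count of the 90 other pathway genes. Of 570 alternative values for the members, 75 changed sign and 0 passed the threshold. Of 949 values for the other named genes, 12 changed sign and 0 passed. Several alternatives alter only the variance or the features tested and return the main difference, so part of the kept signs was fixed in advance. The sign was kept under all 19 alternatives for Phlda3 and Bbc3 between either Epcam-derived group and the Albumin-derived tumours, and the smallest adjusted p among them was 0.108, for Phlda3.

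Counts over all features moved more. Between Epcam-derived tumours without CLC and Albumin-derived tumours, 67 features were called, and 107 with quantile normalization, 106 with median centring, 129 on the authors' value table and 135 with normexp. The count was 110 with the mean of a gene's probes, 104 with every probe a feature, 32 with a filter on all 6 arrays, 1 with no filter, 16 with only the groups compared and 0 with slide as a fixed block. Without 1 tumour it ranged from 0 to 16, with 0 whenever a tumour of either compared group was left out. Of the 67 calls, 23.9% were higher, against 48.8% on the authors' value table, which moved the median of all features from 0.06 to 0.37. That table moved it from -0.01 to 0.31 between CLC tumours and Albumin-derived tumours, and normexp moved the medians to -0.16 and -0.12, so Ccng1 at 0.04 on the authors' table lies below the shift. In that second comparison 17 features were called, and 66 with quantile normalization, 35 with median centring, 66 with normexp, 27 with trend and robust variance, 1 with no filter, and 0 with slide as a block, within slide 1, with only the groups compared, and from 0 to 0 without 1 tumour. Between CLC tumours and the other Epcam-derived tumours the count was 0 under every alternative run.

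Whether replicate numbers pair the tumours is not known. The replicate differences of the groups correlated over features at -0.16, 0.06 and 0.23, which cannot settle it with 1 difference per group. With a replicate block the count was 11 for Epcam-derived tumours without CLC, 0 for those with CLC against Albumin-derived ones and 0 between the Epcam-derived groups. Crossing the Albumin-derived numbers, a choice made after seeing the data, gave 96 in the first. With 2 tumours per group the causes of these shifts were not tested.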
